A study of Homo sapiens with 30 samples.

Results

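The 5 basal-cell genes KRT5, KRT14, KRT15, KRT17 and TP63 were followed through the RNA-seq, ChIP-seq and ATAC-seq data of the series. They were chosen by name as the keratins and the transcription factor that mark basal epithelium, and all 5 were present among the 26255 gene rows of the RNA-seq table. RWPE1, an immortalised prostate epithelial line of non-malignant origin, had been transduced with retroviruses, selected with puromycin and hygromycin, and grown in keratinocyte medium with EGF and bovine pituitary extract. RNA came from 4 lines: vector, with the empty vectors pQCXIH and pBabe-puro; ERG, with the ETS transcription factor ERG (UniProt isoform 1) and empty pBabe-puro; mAKT, with empty pQCXIH and myristoylated, constitutively active AKT in pBabe-puro; and ERG/mAKT, with both. ChIP-seq covered ERK2 in vector and ERG cells, the repressive histone mark H3K27me3 in vector, ERG and ERG S96E cells (a phosphomimetic mutant of ERG), and ERG itself in ERG/mAKT cells. The labels of the vector and ERG ChIP samples name the pQCXIH vector without pBabe-puro. ERG ChIP-seq of VCaP, a prostate cancer line that expresses ERG from its own TMPRSS2/ERG rearrangement and was given DMSO, was used as a second ERG list, and ATAC-seq lists, which mark open chromatin, covered the ERG, mAKT and ERG/mAKT lines. ERG in these cells is driven by a retroviral vector, named pQCXIH in the sample labels and pLHCX in their protocol text, and whether a line was 1 clone is not given in the sources used here.

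Keratins form filaments as pairs of a type I and a type II protein. KRT5 is the type II keratin of basal cells and pairs mainly with the type I keratins KRT14 and KRT15, while KRT17 is a type I keratin of basal, stressed and appendage epithelium. TP63 is a transcription factor that is required for basal and squamous epithelium, and its shorter ΔN form, made from an internal start, is the main one in basal cells. Luminal prostate cells make the simple keratins KRT8 and KRT18 instead.

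Each line has 1 FPKM value per gene (fragments scaled by transcript length and library size), which the authors pooled over 3 libraries. A spread between libraries therefore could not be given, no test was run on the RNA values, and "past 2-fold" means a ratio of at least 2 whose higher line reached an FPKM of 1; genes that reached it are called compared. Which neighbours in the order of lines differ beyond the spread between libraries is therefore not known. ERG itself had an FPKM of 0.264 in vector, 357.6 in ERG, 0.435 in mAKT and 328 in ERG/mAKT cells, as the labels say. AKT1 stood at 58.7, 64.2, 156.3 and 281 in the same order. The 4 basal keratins were measurable in all 4 lines and summed to an FPKM of 9200, 3718, 9484 and 9525. KRT8 and KRT18 summed to 1439, 3612, 1657 and 1879 in the same order. Of 10 luminal markers, keratins not among them, KLK2 and KLK3 were listed at 0 in all 4 lines. Of 5 endothelial markers none reached an FPKM of 1, and of 4 immune markers CD68 alone did, at 24.3 to 28.9. In bulk RNA, fewer cells of a type and less RNA per cell cannot be told apart.

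The sequences under the ERG peaks near these genes are given first, as the places where the ERG list of ERG/mAKT cells holds a peak. These peaks were weak, with a pileup of 3 to 5 reads, and none had a q-value of 0.01 or below. Within 20 kb of the genes the ERG list of ERG/mAKT cells held 8 peaks, of which 1 lay at KRT5, 5 at KRT15, 1 at KRT17, 1 at TP63 and 0 at KRT14. ERG belongs to the ETS family, whose members bind a GGAA core, so GGAA and its reverse complement TTCC are in capitals. Each line is the plus strand of GRCh37 (hg19), 101 bases centred on the summit of a peak that overlaps no annotated exon.
KRT5, 2.37 kb upstream of the main start, chr12:52916500-52916600: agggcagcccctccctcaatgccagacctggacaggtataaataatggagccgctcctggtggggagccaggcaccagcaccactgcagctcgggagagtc
KRT15, 18.6 kb downstream of the main start and beyond the gene, chr17:39656517-39656617: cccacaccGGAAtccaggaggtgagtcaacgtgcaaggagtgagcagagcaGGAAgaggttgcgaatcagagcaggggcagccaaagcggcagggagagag
KRT15, 2.47 kb upstream of the main start, chr17:39677564-39677664: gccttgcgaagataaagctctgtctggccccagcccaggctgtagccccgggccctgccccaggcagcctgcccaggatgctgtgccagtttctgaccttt
KRT15, 3.13 kb upstream of the main start, chr17:39678223-39678323: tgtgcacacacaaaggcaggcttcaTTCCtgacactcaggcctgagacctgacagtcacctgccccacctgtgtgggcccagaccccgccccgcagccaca
TP63, intronic, 26.2 kb from the nearest annotated start, chr3:189533761-189533861: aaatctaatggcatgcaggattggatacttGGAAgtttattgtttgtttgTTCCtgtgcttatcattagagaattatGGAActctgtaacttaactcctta

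The core was present in the windows of 4 of the 5 KRT15 peaks once the 2 exonic ones are counted, with 2 copies in the one 18.6 kb away and 1 copy in each of the other 3. The TP63 window had 3 copies, 1 of them in the longer form GGAAGT. Neither the KRT5 nor the KRT17 window held a GGAA. Over all 9110 windows of the list that could be read, 67.2% held GGAA on either strand, with a median of 1 copy, and 8.24% held GGAAGT. The AP-1 site, searched on both strands as TGANTCA with N for any base, occurred in 2 of the 5 KRT15 windows and in 7.3% of all windows. A match to these letters is a description of the window and not a measured site. In VCaP, the 1 ERG peak near a member lay 7.19 kb upstream of KRT5, at chr12:52921336-52921543, and its window held no GGAA, a core found in 70.6% of the 5912 VCaP windows.

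KRT5 and KRT14, the classic basal pair, had the lowest ratios of the members in ERG over vector. KRT5 had an FPKM of 3126 in vector, 1170 in ERG, 3642 in mAKT and 3519 in ERG/mAKT cells. The ERG line was low and the other 3 lay within a narrow range. ERG over vector was 2.67-fold lower (log2 ratio −1.42), and ERG/mAKT over ERG was 3.01-fold higher (1.59). KRT14 had an FPKM of 2936, 699.5, 2527 and 1185 in the same order of lines. It was 4.2-fold lower in ERG than in vector (−2.07), and 2.13-fold lower in ERG/mAKT than in mAKT (−1.09). Both lines with ERG were low in KRT14, and ERG/mAKT over ERG was 1.69-fold higher (0.76), which is not past 2-fold. KRT5 and KRT14 thus parted in ERG/mAKT cells, where KRT5 was 2.97 times KRT14, against 1.06 times in vector, 1.67 in ERG and 1.44 in mAKT cells (FPKM, which is per length).

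KRT17 had an FPKM of 3105 in vector, 1768 in ERG, 3262 in mAKT and 4542 in ERG/mAKT cells. It was lowest in ERG cells and highest in ERG/mAKT cells, where it was the 24th most abundant gene of the table and the most abundant member. The ratio of ERG over vector was −0.81 on the log2 scale and that of ERG/mAKT over mAKT 0.48, so the sign of the ERG ratio differed with mAKT. Neither ratio was past 2-fold. ERG/mAKT over ERG was 2.57-fold higher (1.36). KRT17 made up 51.1% of the summed FPKM of the 3 type I members in vector, 69.4% in ERG, 55.8% in mAKT and 75.6% in ERG/mAKT cells. KRT14 took 48.3%, 27.5%, 43.2% and 19.7% of the same sum. Reads of KRT14, KRT16 and KRT17 can be shared with near-identical copies, and the listed copies KRT16P1, KRT16P2, KRT16P3, KRT17P5 and KRT42P had FPKM values of at most 0.162. How the counting divided shared reads was not tested.

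KRT15, a type I keratin of less differentiated basal cells, was higher in each line with ERG than in its control. Its FPKM was 33.4 in vector, 80.3 in ERG, 53.8 in mAKT and 279.7 in ERG/mAKT cells, with vector lowest and ERG/mAKT highest. The ratio of KRT14 to KRT15 was 88 in vector, 8.71 in ERG, 47 in mAKT and 4.24 in ERG/mAKT cells. ERG over vector was 2.41-fold higher (1.27), ERG/mAKT over mAKT 5.2-fold higher (2.38) and ERG/mAKT over ERG 3.48-fold higher (1.80). Against vector, ERG/mAKT cells had 8.39 times the KRT15 level, the widest range between lines of any member. The mAKT ratio without ERG was smaller, at 1.61-fold (0.69).

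TP63 had an FPKM of 36.3 in vector, 21.3 in ERG, 39.2 in mAKT and 38 in ERG/mAKT cells. ERG cells were low by 1.7-fold (−0.77), which is not past 2-fold, and the other 3 lines lay close together. Its highest line was 1.84 times its lowest, the narrowest range of the 5 members. TP63 and KRT5 shared the order of the 4 lines, with ERG lowest and mAKT highest. The FPKM sums all isoforms, so TA and ΔN forms were not separated.

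**Figure D1:**
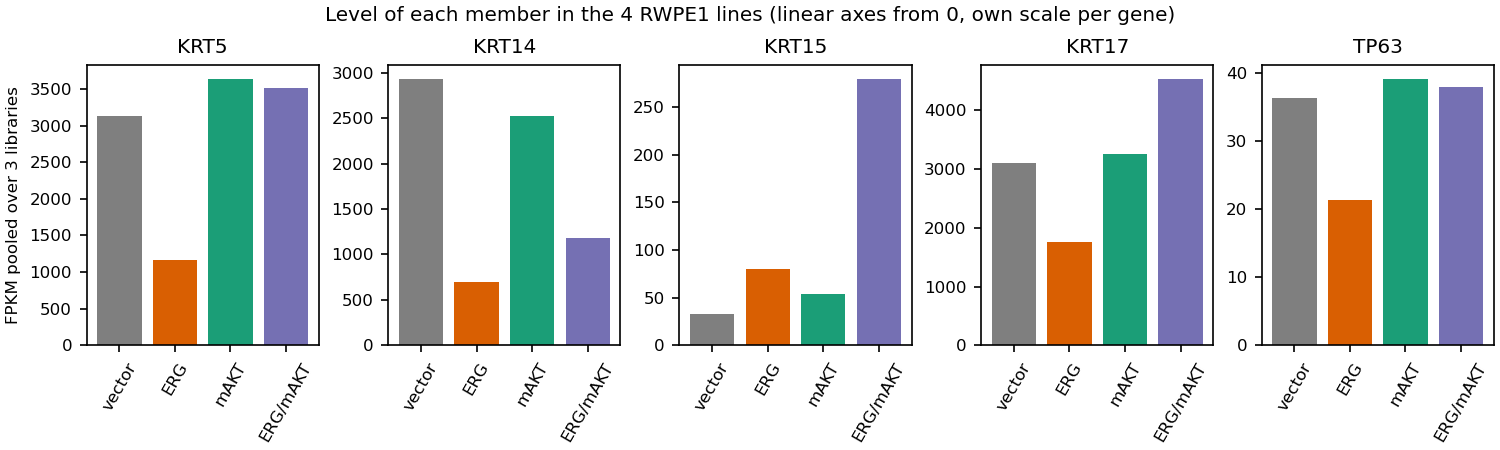
FPKM (y axis, linear from 0, a scale of its own for each gene) of the 5 members in the vector, ERG, mAKT and ERG/mAKT lines, each bar 1 value pooled over 3 libraries and without error bars because single libraries were not used here. KRT5, KRT14, KRT17 and TP63 are lowest in ERG cells, while KRT15 is lowest in vector at 33.4 and highest in ERG/mAKT cells at 279.7.

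**Figure D2:**
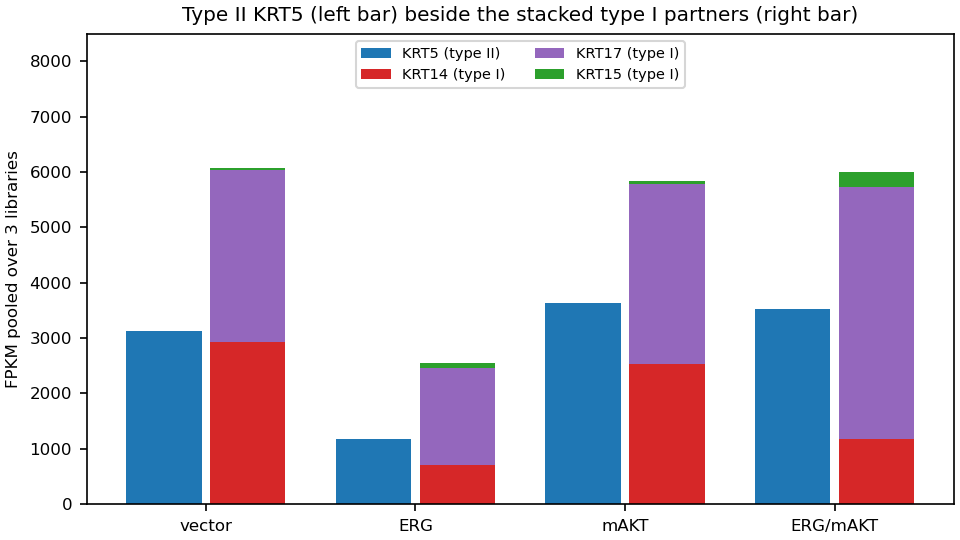
FPKM of the type II keratin KRT5 (left bar) beside the stacked type I keratins KRT14, KRT17 and KRT15 (right bar) in the 4 lines, on a linear axis from 0. The type I stack is of similar height in vector (6074) and ERG/mAKT (6007), but KRT14 makes up 48.3% of it in the first and 19.7% in the second.

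The ERG over vector comparison addresses ERG without active AKT. Of the 5 members, 2 were past 2-fold lower (KRT5, KRT14) and 1 past 2-fold higher (KRT15), where 2% of the 12375 genes compared were past 2-fold lower and 5.16% higher. The median log2 ratio of the members was −0.81 against −0.01 over all genes compared. KRT14 had a lower ratio than all but 0.179% of those genes, KRT5 than all but 0.742%, KRT17 than all but 2.38% and TP63 than all but 2.66%. For KRT15, 3.22% of genes had a higher ratio.

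In mAKT over vector the members lay near the vector level. None of the 5 was past 2-fold, where 1.6% of the 12265 genes compared were higher and 1.35% lower, and the median log2 ratio was 0.11 against 0.02 over all genes. KRT15 was farthest from vector, at 0.69, and 2.02% of genes had a higher ratio.

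The comparison of ERG/mAKT with ERG addresses active AKT in the presence of ERG. KRT5, KRT15 and KRT17 were past 2-fold higher and none lower, where 3.16% of the 12444 genes compared were higher and 3.83% lower. All 5 ratios were above 0.7 on the log2 scale, and the median was 1.36 against −0.05 over all genes. ERG/mAKT over mAKT separated the members instead. KRT15 was past 2-fold higher and KRT14 past 2-fold lower, where 3.08% of the 12351 genes compared were higher and 1.38% lower, and KRT5 and TP63 had ratios of −0.05 each. The same 2 genes stood out in ERG/mAKT over vector, with KRT15 at 3.07 and KRT14 at −1.31, where 4.11% of genes were higher and 1.99% lower. For mAKT over ERG, KRT5 (1.64) and KRT14 (1.85) were past 2-fold higher, where 2.5% of genes were higher and 5.14% lower. These comparisons share lines, so their ratios are not independent of each other.

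**Figure D3:**
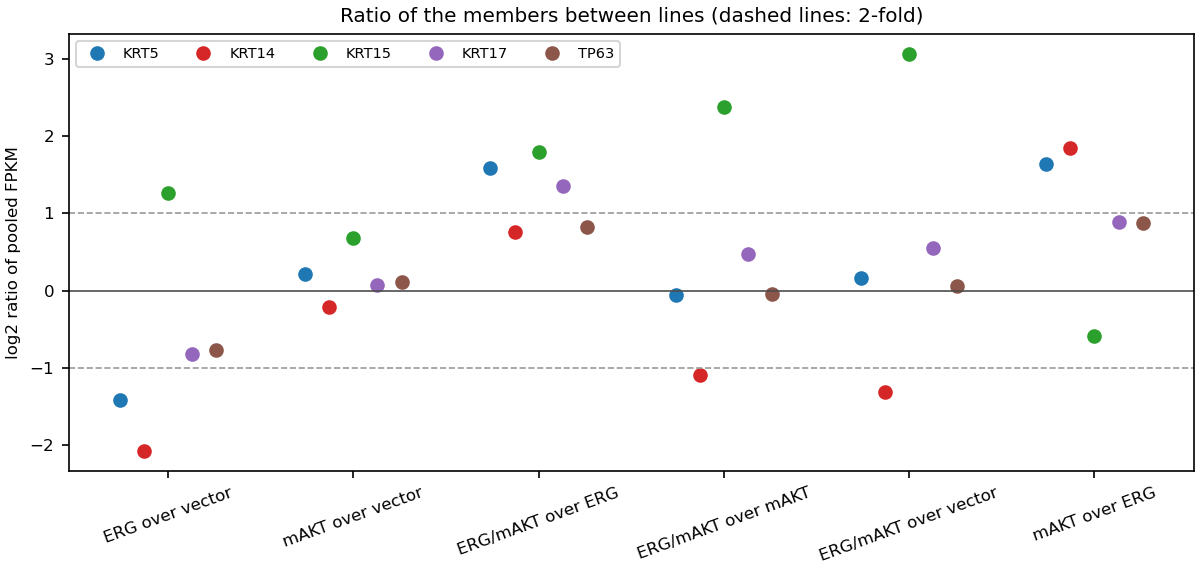
Log2 ratio of pooled FPKM (y axis) of each member in the 6 comparisons between lines (x axis), 1 point per gene with no error, dashed lines at 2-fold. The points of ERG/mAKT over ERG all lie above 0, from 0.76 to 1.80, while ERG over vector has KRT14 at −2.07 and KRT15 at 1.27.

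The ratio of ERG to its control was higher in the presence of mAKT than in its absence for each of the 5 members. The difference between both log2 ratios was 1.37 for KRT5, 0.98 for KRT14, 1.11 for KRT15, 1.29 for KRT17 and 0.72 for TP63. In 3 of 5 it was at least 1, a level reached by 2.38% of the 12458 genes compared, and the median was 1.11 against −0.08 over those genes. Without single libraries the difference could not be tested. AKT1 had an FPKM of 156.3 in mAKT and 281 in ERG/mAKT cells, against 58.7 in vector and 64.2 in ERG cells. ERG/mAKT over mAKT thus compares lines that differ in AKT1 as well as in ERG, and the part of AKT1 in these ratios was not tested.

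**Figure D4:**
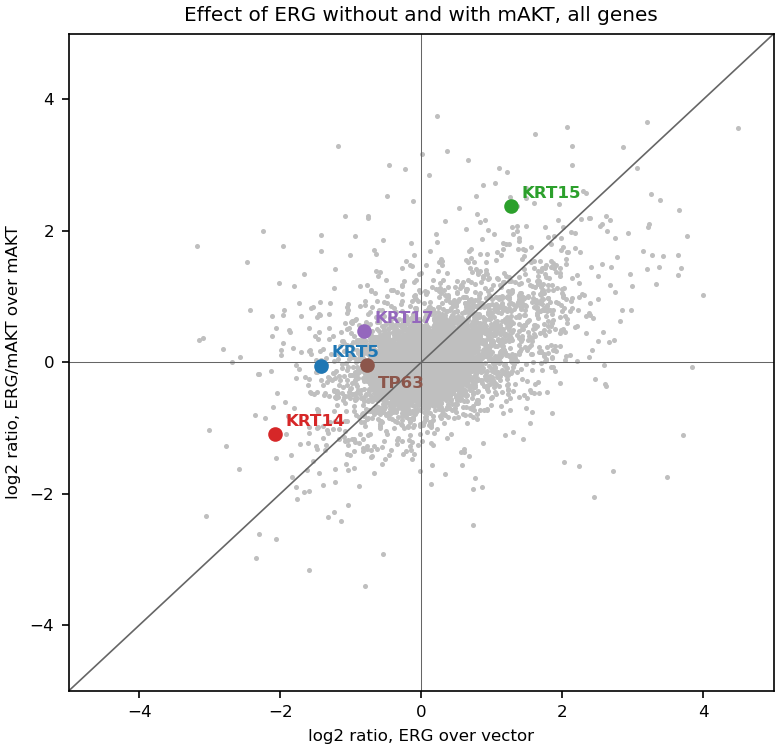
Log2 ratio of ERG over vector (x axis) against log2 ratio of ERG/mAKT over mAKT (y axis) for genes that reached an FPKM of 1, in grey, with the 5 members labelled; axes end at 5 in either direction. All 5 members lie above the diagonal, on which both ratios are equal, and KRT17 crosses from −0.81 to 0.48.

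The simple keratins, the luminal counterpart of the basal set, were highest in ERG cells, where the basal sum was lowest. Of 4 compared, KRT8 (1.51), KRT19 (1.38) and KRT18 (1.17) were past 2-fold higher in ERG than in vector and KRT7 was at 0.82. KRT20 was too low to be compared. KRT8, the type II simple keratin, had an FPKM of 622.4, 1769, 670.6 and 920.8 in vector, ERG, mAKT and ERG/mAKT cells. With KRT5 and KRT14 summed and set against KRT8 and KRT18, the ratio was 4.21 in vector, 0.517 in ERG, 3.72 in mAKT and 2.5 in ERG/mAKT cells. In ERG/mAKT over ERG, KRT7 was past 2-fold lower (−1.04), and the other 3 were at −0.94, −0.94 and −0.55.

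Among the suprabasal and stress keratins, KRT6A and KRT16, the pair induced in wounded or hyperproliferative epithelium, were low in ERG cells like KRT5. They were past 2-fold lower in ERG over vector, KRT6A at −1.70 and KRT16 at −1.95, while KRT80 (1.60) and KRT13 (1.25) were past 2-fold higher, of 6 compared. In ERG/mAKT over ERG 6 of 8 compared were past 2-fold higher and 1 lower. The largest ratios were those of KRT6C (5.17), KRT4 (4.52), KRT13 (3.93) and KRT16 (3.59). KRT6C and KRT4 had an FPKM of 0.115 and 0.107 in ERG cells and of 4.15 and 2.45 in ERG/mAKT cells, so their ratios rest on low values. KRT13 and KRT4 form the pair of stratified mucosa, and KRT13 had an FPKM of 4.1, 9.76, 110.9 and 148.5 in vector, ERG, mAKT and ERG/mAKT cells. KRT6A, KRT6B and KRT6C are near-identical copies of each other, so the division of reads among them is uncertain. mAKT alone had 4 of 8 past 2-fold higher, with KRT13 at 4.76 and KRT4 at 3.71, where none of the basal members was past 2-fold. KRT4 had an FPKM of 0.266 in vector, so that ratio also rests on a low value.

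A list of 14 genes of the p63 network, that is, known p63 targets and partners in basal and squamous cells, had 2 of 10 compared past 2-fold lower in ERG over vector. These were FAT2, an atypical cadherin (−1.15), and TRIM29, a tripartite motif protein of basal cells (−1.10), and the list's median was −0.13. PERP, a desmosomal protein, was at −0.70. In ERG/mAKT over ERG 6 of 13 were past 2-fold higher and none lower, with CLCA2 at 4.16, ZNF750 at 2.94, FAT2 at 1.61 and FGFR2 at 1.56, and a median of 0.43. ZNF750, a factor of late epidermal differentiation, reached an FPKM of 2.76 in ERG/mAKT cells, CLCA2 one of 3.71 and FGFR2 one of 1.59, so all remained low. In ERG cells ZNF750 was at 0.36, CLCA2 at 0.21 and FGFR2 at 0.54, so their ratios rest on low values. mAKT over vector had CLCA2 past 2-fold higher (1.52) of 12 compared. In ERG/mAKT over mAKT ZNF750 (1.49) and CLCA2 (1.41) were past 2-fold higher of 13.

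The adhesion genes of basal cells, which make the hemidesmosome, its laminin ligand and the basal cadherins, were a list of 13 genes. All 13 were compared in each comparison. COL17A1, the transmembrane collagen of the hemidesmosome, was past 2-fold lower in ERG over vector (−1.40) and none was higher, while LAMB3 was at 0.95 and ITGA6 at −0.82. COL17A1 was at −1.14 in ERG/mAKT over mAKT, also past 2-fold lower. In ERG/mAKT over ERG the laminin genes LAMB3 (−1.16) and LAMA3 (−1.11) were past 2-fold lower, and DST, a plakin of the hemidesmosome, was past 2-fold higher at 1.33. No member of this list was past 2-fold in mAKT over vector.

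Of 7 mesenchymal markers compared, FN1 (1.44) and CDH2 (1.28) were past 2-fold higher in ERG over vector and none was lower, with a list median of 0.26. In ERG/mAKT over ERG CDH2 (−3.47), FN1 (−3.26) and VIM (−1.87) were past 2-fold lower and none was higher, with a median of −0.68. The summed FPKM of the list was 902 in vector, 1360 in ERG, 483 in mAKT and 355 in ERG/mAKT cells, most of it VIM. CDH2 (−2.32) and VIM (−1.01) were also past 2-fold lower in mAKT over vector, where no basal member passed. VIM, the intermediate filament of mesenchymal cells, had an FPKM of 737, 1056, 366.2 and 288.5. COL3A1 was listed at 0 in all lines and PDGFRB did not exceed 0.0168. Of 10 luminal markers 3 were compared and none passed 2-fold in any comparison, the summed level being 6.87 to 9.09. The summed level of 5 neuroendocrine markers was 3.71 to 7.37, nearly all ENO2, which was at 1.00 on the log2 scale in ERG over vector, just under 2-fold, and past 2-fold lower in mAKT over ERG (−1.11). The part of any other cell state in the values of the basal members was not tested.

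For each member the 3 genes with the most similar pattern over the 4 lines were sought among 6936 genes, by the Euclidean distance between their 3 log2 ratios over vector. KRT5 was nearest to SH3BGRL (distance 0.30), TRIM29 (0.39) and FAT2 (0.40). KRT17 was nearest to the pseudogene RPSAP58 and to PERP (0.21 each), and then to the transcription factor CEBPD (0.27). TP63 had the closest neighbours, TTLL12 (0.11), KLF9 (0.13) and LYRM7 (0.13). KRT14 and KRT15 stood more alone. The nearest genes to KRT14 were ECM1 (0.68), COL17A1 (0.69) and SLITRK6 (0.69), and those to KRT15 were the small nucleolar RNA SNORD5 (0.31), ASS1, an enzyme of arginine synthesis (0.63), and ELF3, an epithelial ETS factor (0.69). With 4 lines a small distance can arise in many ways, and 16 genes lay within 0.25 of TP63 but none of KRT5, KRT14 or KRT15.

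KRT14, KRT15 and KRT17 lie in the type I keratin cluster on chromosome 17 and KRT5 in the type II cluster on chromosome 12, all on the minus strand (hg19). The table places KRT15 at chr17:39669997-39675270, KRT14 at chr17:39738531-39743147, KRT17 at chr17:39775692-39780882 and KRT5 at chr12:52908359-52914243. TP63 spans 266 kb of the plus strand of chromosome 3, at chr3:189349216-189615068. KRT14 and KRT17 are 32.5 kb apart, so their 20 kb windows overlap, and KRT19 lies in the window of KRT15 and KRT16 in that of KRT17. Peaks were counted in the gene span with 20 kb on either side, 45 kb in all for each keratin and 306 kb for TP63. Each list is 1 library, with ChIP DNA pooled from 3 experiments, so presence or absence of a peak has no replicate check.

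Open chromatin was recorded at all 5 loci in all 3 ATAC lists, as it was at 88.4% (ERG), 87.3% (mAKT) and 83.1% (ERG/mAKT) of all genes. In the order ERG, mAKT and ERG/mAKT there were 6, 6 and 4 peaks at KRT5, 3, 3 and 2 at KRT14, 8, 9 and 5 at KRT15, 7, 5 and 4 at KRT17, and 12, 11 and 11 at TP63. The lists hold 63354, 57999 and 42081 peaks, so the ERG/mAKT list is shorter throughout. Of its 26 peaks at the members, 96.2% overlapped a peak of the ERG list and 96.2% one of the mAKT list. The share over the whole ERG/mAKT list was not determined. A peak covered the main start of KRT5 (fold enrichment 3.59, 2.77 and 3.82) and of KRT17 (3.86, 3.43 and 4.09) in every list. At the main start of KRT14 a peak was present in the ERG (3.16) and mAKT (3.11) lists and absent from the ERG/mAKT list. By fold enrichment that peak stood low, since 3.63% of the ERG list and 6.11% of the mAKT list had lower values. Its pileup was high, at 230 in the ERG list. With each list at 42081 peaks, KRT14 kept 3 peaks in the ERG and 3 in the mAKT list, against 2 in ERG/mAKT. The KRT14 FPKM was 699.5 in ERG and 2527 in mAKT cells, where the start was covered, and 1185 in ERG/mAKT cells, where it was not. KRT15 had no peak over its main start in any list, but one was centred 0.593 to 0.613 kb upstream of it and another covered an upstream annotated start. The broadest ATAC peaks at the keratins lay at 3′ ends, led by chr17:39735884-39739572 at KRT14 in the mAKT list, 3689 bp wide, and by chr17:39774119-39777366 at KRT17 in the ERG list, 3248 bp wide.

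The internal start of TP63 was the open one. Annotated TP63 transcripts begin either at the outer start, from chr3:189349178 on, or at the internal start of the ΔN forms, from chr3:189507448 on. An ATAC peak covered the internal starts from chr3:189507448 to chr3:189507484 in the ERG (chr3:189507283-189507522, fold enrichment 8.63), mAKT (7.18) and ERG/mAKT (6.04) lists. It ended before the last internal start, chr3:189507590, where 5 annotated transcripts begin. None of the 3 lists had a peak over an outer start. The strongest peak of the locus in the ERG and mAKT lists lay 79.4 kb into the gene, between the starts, at 15.0 and 9.77, above 99.7% and 96% of the peaks of those lists. Of the peaks in the TP63 window, 9, 8 and 8 lay at or beyond the internal start and 3 in each list before it, although the part of the window before it is the longer one, at 178 kb against 128 kb. The sequence of the ERG/mAKT peak up to the first internal start, chr3:189507308-189507447 on the plus strand of GRCh37, is shown because this is the open start of the locus, with GGAA and TTCC in capitals.
TP63, before the internal start: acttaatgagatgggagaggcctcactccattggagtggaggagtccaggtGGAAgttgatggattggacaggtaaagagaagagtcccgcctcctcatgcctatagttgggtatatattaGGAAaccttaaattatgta

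RefSeq promoters, from 250 bases before a start, were given for 2 of the 5 members, KRT5 and TP63. That of KRT5 matches hg19 at 1 place, chr12:52914179-52914428 on the minus strand, directly before the main start, which ATAC peaks covered in all 3 lists and ERK2 peaks in both ERK2 lists. It is written in the direction of transcription, with GGAA and TTCC in capitals.
KRT5, 250 bases before the start: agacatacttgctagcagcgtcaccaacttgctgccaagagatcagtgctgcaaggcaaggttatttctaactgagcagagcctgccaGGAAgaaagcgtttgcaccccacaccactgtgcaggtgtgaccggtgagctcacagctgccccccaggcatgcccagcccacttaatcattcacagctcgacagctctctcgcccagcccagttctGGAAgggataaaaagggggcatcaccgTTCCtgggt

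The KRT5 stretch held 3 copies of the core, and 92.7% of 35116 RefSeq promoters held at least 1 in their 250 bases, with a median of 3. The TP63 stretch, 140 bases taken from the ATAC peak and not from the RefSeq promoter, held 2, 1 of them as GGAAGT. That form was present in 19.5% of promoters. TATAAA, a form of the TATA box, and TGANTCA were found in neither stretch, and were present in 10.7% and 6.57% of promoters, on either strand. Other forms of the TATA box were not searched for, so its absence from these stretches is not shown. All promoter shares are for 250 bases, so they do not match the TP63 stretch in length.

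ERG peaks near the members rested on few reads. At least 1 peak of the ERG/mAKT list lay within 20 kb of 30.2% of all genes and 4 of the 5 members, and of the VCaP list within 20 kb of 21.3% of all genes and 1 of the 5. KRT15 had 5, a number reached by 0.701% of genes, and 3 of these stood together 2.47 to 3.13 kb upstream of its main start, at chr17:39677553-39677669, chr17:39677940-39678160 and chr17:39678253-39678462. The second of them covered an annotated upstream start of KRT15, and the ATAC peak chr17:39677915-39679113 of the same line overlapped the pair farther from the start. The other 2 lay in an exon of KRT15, at chr17:39670418-39670526, and 18.6 kb beyond the main start at chr17:39656525-39656667, overlapping an ATAC peak of all 3 lines (fold enrichment 6.79, 4.97 and 7.66). The KRT5 peak, chr12:52916499-52916607, lay in an ATAC peak of each line and in an ERK2 peak of ERG cells. The KRT17 peak, chr17:39785265-39785373, fell on an exon of the pseudogene KRT42P and in no ATAC peak, and the intronic TP63 peak, chr3:189533730-189533838, also lay in no ATAC peak. Fold enrichments of the 8 peaks were 2.82 to 4.24 with a pileup of 3 to 5 reads, against a median of 3.53 over the list, and none had a q-value of 0.01 or below. The ERG list was made in ERG/mAKT cells, so ERG at these loci without mAKT was not analysed here.

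ERK2, the kinase that phosphorylates ERG, had peaks near all 5 members in vector cells and near each but KRT14 in ERG cells. In vector cells there were 11 at KRT5, 5 at KRT14, 10 at KRT15, 3 at KRT17 and 20 at TP63, and in ERG cells 5, 0, 6, 3 and 3. Per 100 kb of window the vector counts were 24, 11.2, 22.1, 6.64 and 6.54, with KRT17 and TP63 alike. All 5 members had a peak in the vector list, as did 68.2% of all genes, and 4 of 5 in the ERG list, as did 24.2%. Among genes of FPKM 100 or more the share was higher, at 80.1% in vector and 53.2% in ERG. The vector list is the longer one, with 41276 peaks against 5721, from 8393459 ChIP reads against 15020233. With both lists at 5721 peaks, the vector counts were 6, 3, 3, 1 and 3, so at equal length KRT15 and KRT17 had more in ERG cells, TP63 had 3 in each, and KRT14 had 3 in vector against 0 in ERG cells.

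In vector cells the strongest ERK2 peak of KRT5 lay just beyond the gene's 3′ end, at chr12:52906966-52907913, with a fold enrichment of 7.29, above 99.9% of the list. A second, at chr12:52913997-52914824 and 6.15, covered the main start of KRT5, and the ERG list had one there too, at chr12:52914062-52914598 and 4.09. KRT14 had its strongest over exons at chr17:39741682-39742616 (6.07), and a pair beyond its 3′ end at 5.47 and 5.7. For KRT15 the strongest, chr17:39681877-39682210 (7.39), fell on KRT19, and chr17:39678602-39679216 (5.54) on its own upstream start, where the ERG list also had a peak, chr17:39678780-39679091 (4.47). KRT15 also had a weak peak over its main start in vector cells, chr17:39675081-39675281 (3.08). KRT17 had a peak over an annotated start in both lists, chr17:39780883-39781183 (3.08) in vector and chr17:39780801-39781014 (4.47) in ERG cells. At TP63 the 20 vector peaks were split evenly, with 10 before the internal start and 10 beyond it, and fold enrichments up to 4.27, while the 3 of ERG cells included chr3:189510663-189510882, 3.2 kb beyond the nearest internal start. Of the 17 ERG-cell peaks 35.3% overlapped a vector peak, and of the 49 vector peaks 12.2% overlapped an ERG-cell peak. What these shares are over the whole lists was not determined. A q-value of 0.01 or below was reached by 8 of the vector peaks, 3 at KRT5, 3 at KRT14 and 2 at KRT15, and by none in ERG cells.

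H3K27me3 peaks at the 5 loci had low fold enrichments, as did the lists as a whole. The list medians were 1.84 in vector, 1.94 in ERG and 2.01 in ERG S96E cells. Vector cells had 3 peaks at KRT5, 12 at KRT14, 3 at KRT15, 2 at KRT17 and 20 at TP63, where 95.9% of all genes had at least 1. In ERG cells there were 0, 3, 0, 0 and 2, where 72.6% of genes had at least 1, and in ERG S96E cells 0, 9, 0, 0 and 0, where 77% had at least 1. Per 100 kb of window the vector counts were 6.54 at KRT5, 26.9 at KRT14, 6.63 at KRT15, 4.43 at KRT17 and 6.54 at TP63. At KRT14 they were 6.72 in ERG and 20.2 in ERG S96E cells, and at TP63 0.654 in ERG cells. Among genes with FPKM values of 100 or more the share was 92.6% in vector and 47.1% in ERG cells. The lists hold 492265, 228233 and 252784 peaks. At the length of the shortest list, TP63 had 9 vector peaks against 2 and 0, and KRT14 had 3 against 3 and 9. Of the 20 vector peaks at TP63, 16 lay before the internal start and 4 beyond it, and the 2 of ERG cells also lay before it. None of the 3 H3K27me3 lists had a peak over a main start of any member. The strongest peaks at each member had fold enrichments of 1.82 to 2.54 over the control library in vector cells. They were 1.81 and 2.1 in ERG cells and 2.57 in ERG S96E cells, and none reached a q-value of 0.01. Within the vector list they stood above 46.5% (KRT17), 51.6% (KRT5), 79.6% (KRT14), 97.2% (TP63) and 98.9% (KRT15) of the peaks. In ERG cells the shares were 23.7% (TP63) and 75% (KRT14), and in ERG S96E cells 94.8% (KRT14). All peaks of a member together covered 1.04% to 8.84% of its window in vector cells, and at KRT14 3.45% in ERG and 8.8% in ERG S96E cells. In the KRT14 window all 3 peaks of ERG cells, 3 of the 12 of vector cells and 4 of the 9 of ERG S96E cells lay on KRT9, a neighbouring keratin gene of palm and sole skin. No vector peak at a member overlapped an ERG-cell peak, and 10.3% of 39 distinct vector peaks overlapped an ERG S96E one. The same shares over the whole lists were not determined, so these cannot be called particular to the members. H3K27me3 in mAKT and ERG/mAKT cells was not analysed here.

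**Figure D5:**
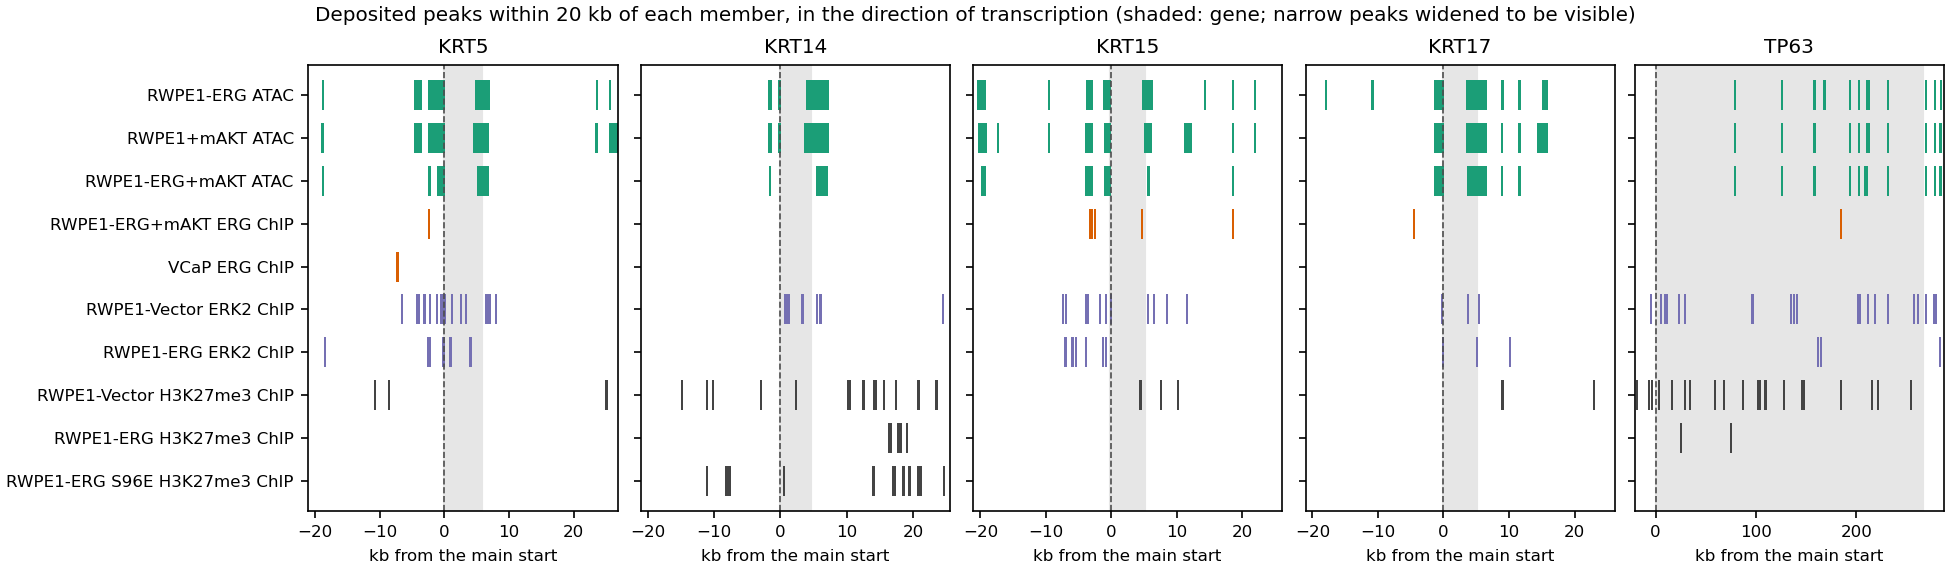
Position of each peak (kb from the main start, in the direction of transcription; shaded, the gene) within 20 kb of the 5 members in the 10 lists, with ATAC in green, ERG in orange, ERK2 in purple and H3K27me3 in grey; narrow peaks are widened to be visible. At TP63 the start of the axis is the outer start, where no ATAC peak lies, and the keratins show ATAC and ERK2 peaks near their starts and 3′ ends, with 5 ERG peaks at KRT15 and none at KRT14.

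The number of ERG peaks and the RNA ratio can be set side by side for the members. KRT15, which had the highest ratio in ERG/mAKT over vector, had the most ERG peaks in its window in ERG/mAKT cells, 5. Of these, 1 lay beyond the 3′ end of the gene. KRT14, which was lowest in that comparison, had none. The windows hold other genes too, such as KRT19 in that of KRT15, and which gene a peak belongs to was not tested. KRT5, KRT17 and TP63 had 1 each, with ratios of 0.17, 0.55 and 0.07. None of these peaks had a q-value of 0.01 or below. With 5 genes and 1 list, this is a description.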

How the data were processed

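RNA-seq, ChIP-seq and ATAC-seq of RWPE1 lines and ChIP-seq of VCaP were used. Per the paper's methods, the authors aligned polyA RNA reads with TopHat2 and made FPKM values with Cuffdiff, which pooled the 3 libraries of each line. ChIP and ATAC reads were aligned to hg19 with Bowtie2. The peak files that the authors deposited give the pileup signal, the fold enrichment over the control and −log10 p- and q-values from MACS2 (versions 2.1.2 and 2.2.7.1, per the file headers), with 1 library a list. Lists differ in length and in p limit, so counts of peaks depend on both.

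Log2 ratios of the FPKM were taken without a pseudocount, and genes whose higher line was under an FPKM of 1 were left out. As no values of single libraries were used, there is no test, and depth is unknown for the RNA. The authors' own fold changes, p-values and calls were not used, and 0 other columns of single samples were left out. Peaks were counted where they overlapped a gene's span, extended by 20 kb on either side, by at least 1 bp. Main starts are those of the canonical GENCODE transcript lifted to hg19. Promoters of RefSeq (GRCh38.p14) matched 2 of the 5 members. Calculations used Python 3.11.15, numpy 2.4.6, pandas 2.3.3 and matplotlib 3.10.9, and the ratio and overlap steps were tested on simulated data.

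Genes named are the members, ERG, AKT1, up to 4 genes per list and comparison with the largest absolute log2 ratios, and the 3 nearest in pattern. Other marker values, the peaks at starts and the broadest ATAC peaks were chosen after their values were seen. The members and lists were chosen with earlier results of these data known. Alternatives were a pseudocount of 1, no filter or an FPKM of 10, 1.5-fold, centring on the median, windows of 10 kb and 50 kb, a q-value of 0.01, lists of equal length and at least 50% of a peak inside the window. The GENCODE gene span was added after the data were seen. Lists attached to the VCaP Input and to the VCaP ERG ChIP with LY294002 carry the names of other libraries and were kept out of the comparisons. An ATAC list of vector cells was not analysed here. Values of some listed genes are not reported here.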

Additional observations from a re-analysis of the deposited data

Results flagged for a closer look

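KRT17 had a log2 ratio of −0.813 in ERG over vector and of 0.478 in ERG/mAKT over mAKT. These are opposite signs of the same contrast without and with mAKT, but neither ratio was past 2-fold. The difference was not tested because values of single libraries were not used.

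The list attached to the VCaP Input, whose header names an ERG ChIP after LY294002, held 1 peak near a member. It lay in the KRT14 window at chr17:39724352-39724502, with a fold enrichment of 3.15. The list attached to the VCaP ERG ChIP with LY294002, whose peak names read as an ATAC library of RWPE1, held 32 peaks near the members, with 6 at KRT5, 3 at KRT14, 7 at KRT15, 5 at KRT17 and 11 at TP63. It covered the main starts of KRT5, KRT14 and KRT17 and the internal starts of TP63 up to chr3:189507484 (fold enrichment 9.41). Not covered were the main start of KRT15, the outer start of TP63 and its internal start at chr3:189507590. Which library either list came from was not tested.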

How the results depend on the processing

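No result changed direction among the called values. At 1.5-fold the members past the threshold were 5 in ERG over vector and 1 in mAKT over vector. They were 5 in ERG/mAKT over ERG and 4 in mAKT over ERG. Genes of the other lists were counted over 4 comparisons, without ERG/mAKT over vector and mAKT over ERG. There, 72 were past 1.5-fold against 45 at 2-fold, a gene counting once in each comparison. Over the other alternatives the log2 ratios of the members moved by at most 0.084, and after centring KRT5 and TP63 in ERG/mAKT over mAKT went from −0.05 each to 0.034 and 0.038. The difference between both ERG ratios reached 1 in 4 members after centring, KRT14 being added, against 3. Summed over the lists, ATAC peaks were 167 in 50 kb windows against 96. ERG peaks were 0 at a q-value of 0.01 against 9. ERK2 peaks were 8 at that q-value and 33 with lists of equal length, against 66. H3K27me3 peaks were 34 in 10 kb windows, 112 in 50 kb windows, 0 at that q-value and 28 with lists of equal length, against 54. Wider windows and shorter lists change the count by construction. No paired analysis was possible because the FPKM columns are pooled and carry no replicate numbers, and for the same reason leaving out each library was not run.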
